A study of Mus musculus with 2 samples.

Results

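The windows described here belong to 36 very long genes, most of them genes of neurons and several of them known hosts of chromosomal fragile sites. The genes were chosen by name, and every 50 kb window of the deposited table that overlaps the RefSeq span of one of them on the GRCm38 mouse assembly was taken. This gave 866 windows, or 43.3 Mb, out of 43941 windows in all (1.97%). The genes lie on 15 autosomes and span 371 kb (Cntn6) to 2271 kb (Ptprd). They were set beside the other 180 protein-coding genes of 500 kb or more, whose spans hold 2683 windows. The assay was promoter capture Hi-C, in which chromatin is crosslinked, cut with HindIII and ligated, and ligation products that contain a promoter fragment are pulled out with RNA baits, here for 22225 promoters. The cells were F121-6, a female hybrid mouse embryonic stem (ES) cell line from a 129 by castaneus (Cas) cross, grown in serum and LIF on mitomycin-treated mouse embryonic fibroblast feeders. There were 2 samples, replicates 1 and 2 of this 1 group. The table gives 1 column per allele for both samples together, so the comparison is between the 129 and the Cas allele of the same cells, and no value has a replicate error. F121-6 is 1 line of 1 cross, so strain and parent of origin cannot be told apart. The sources used here give no strain for the feeders, their part in the counts was not tested, and contact counts hold no markers by which the cell type could be checked.

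Very long genes of this kind encode proteins of synapses, axons and cell adhesion, and are transcribed mainly in the nervous system. In ES cells, as in most dividing cells, many of them lie in late-replicating chromatin with few other genes. Several, such as Fhit, Wwox and Immp2l, contain common fragile sites, regions that break when replication is slowed, and breakage in them has been linked to long transcription units that finish replication late. A count in the table is the number of interactions assigned to a window on one allele, and the distance, taken to be in bp, is the deposited summary of how far away the partners of that window lie. The sources used here do not say whether that summary is a mean or a median.

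The 4 promoters below are shown because their windows carry, or contrast with, the main differences. They are RefSeq sequences of the GRCm38.p6 assembly, from 250 bases before to 50 bases after a listed transcription start, written in the direction of the gene, with CpG dinucleotides (CG) in capitals. The Immp2l promoter (chr12:41023840-41024139, plus strand) lies in the 5′ window of that gene, where nearly all interactions were on 129. The Tenm3 promoter (chr8:48674641-48674940, minus strand) is a start inside the gene, in a window that was also higher on 129. The Kcnip4 promoter (chr5:49285610-49285909, minus strand) is an internal start in a window with few interactions, in the gene whose 5′ window had the most. The Lrrtm1 promoter (chr6:77242227-77242526, plus strand) belongs to a gene nested in Ctnna2.
Immp2l: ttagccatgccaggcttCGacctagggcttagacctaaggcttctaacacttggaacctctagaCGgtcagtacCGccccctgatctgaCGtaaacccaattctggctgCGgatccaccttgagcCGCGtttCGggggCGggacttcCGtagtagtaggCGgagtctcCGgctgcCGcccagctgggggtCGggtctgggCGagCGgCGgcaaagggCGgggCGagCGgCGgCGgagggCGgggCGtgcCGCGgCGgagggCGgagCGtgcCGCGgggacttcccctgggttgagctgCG
Tenm3: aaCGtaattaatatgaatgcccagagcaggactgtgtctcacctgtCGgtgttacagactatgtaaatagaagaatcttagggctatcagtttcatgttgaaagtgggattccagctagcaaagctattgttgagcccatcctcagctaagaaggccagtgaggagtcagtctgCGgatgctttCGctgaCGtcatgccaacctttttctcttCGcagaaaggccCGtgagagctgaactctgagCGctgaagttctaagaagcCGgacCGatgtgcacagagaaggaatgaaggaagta
Kcnip4: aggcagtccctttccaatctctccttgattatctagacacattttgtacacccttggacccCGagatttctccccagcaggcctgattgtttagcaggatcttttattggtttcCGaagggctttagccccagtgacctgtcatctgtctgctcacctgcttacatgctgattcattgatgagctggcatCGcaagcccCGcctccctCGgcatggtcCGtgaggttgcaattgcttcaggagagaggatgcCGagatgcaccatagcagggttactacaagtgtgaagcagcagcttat
Lrrtm1: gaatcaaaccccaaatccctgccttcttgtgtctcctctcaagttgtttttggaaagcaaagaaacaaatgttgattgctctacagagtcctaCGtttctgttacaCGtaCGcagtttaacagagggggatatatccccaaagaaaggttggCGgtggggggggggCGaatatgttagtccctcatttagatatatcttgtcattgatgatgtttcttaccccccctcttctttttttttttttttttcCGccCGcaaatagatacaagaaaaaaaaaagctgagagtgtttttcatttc

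The Immp2l sequence holds 32 CpG, the Tenm3 sequence 10, and the Kcnip4 and Lrrtm1 sequences 7 each, against a median of 14 over 20085 listed promoters of protein-coding genes. Over the 47 listed promoters of 27 of the genes, the median was 17 CpG in the 23 that lie in an analysed 5′ window and 6.5 in the other 24. Those 24 include an Lsamp start with 12 CpG, 0.11 kb from the 5′ end, in a window not analysed here. The HindIII site AAGCTT, which reads the same on both strands and was the only motif searched besides CG, occurs in 4 of the 47, against 6.60% of the 20085. No strand was listed for the other 9 genes (Auts2, Cntnap5a, Csmd3, Gpc6, Lrp1b, Naaladl2, Ptprd, Sgcz and Wwox), so both ends of their spans are given below without an orientation. The 5′ window of Lsamp was not analysed here, which left 26 genes with a 5′ window, 18 of them with a listed start of their own in it. The 5′ windows of Cntn4, Dlg2, Kcnip4, Nrxn3, Ntm, Pcdh15, Tenm2 and Tenm3 hold no listed start of their own gene. Of 968 windows under the 36 spans, 102 were not analysed here. They left Ptprd with 35 of 47 windows, Lsamp with 13 of 45, Lrp1b with 10 of 43, Cntn4 with 15 of 22, Rbfox1 with 26 of 32 and Naaladl2 with 23 of 28, and took 1 to 3 windows from Cntn5, Nrxn3, Ntm and Sgcz.

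The windows of these genes had few interactions, and those they had reached far. A window had a median of 285 interactions on 129 and 191.5 on Cas, against 390 on 129 and 278 on Cas in the other long genes and 565 on 129 and 405 on Cas in all windows. Partners lay a median of 2674 kb away on 129 and 2956 kb on Cas, against 887 kb and 845 kb in the other long genes, and 352 kb and 350.0 kb in all windows. Distances above 1 Mb were found in 70.4% of the windows on 129 and 70.8% on Cas, against 45.7% on 129 and 45.1% on Cas in the other long genes. No window of the set was at 0 on either allele, and summed counts ran from 71 in Ptprd to 12494 in Fhit. Interactions were concentrated in few windows, since the 143 windows that reached a summed count of 1000 were 16.5% of the windows and held 56.2% of the counts. Such windows made up 29.1% of the windows of the other long genes and 49.1% of all windows.

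Over the windows of all these genes together, longer distances went with lower counts. The 143 windows at or above 1000 interactions reached 228.5 kb on 129 and 227.5 kb on Cas (median distance). The 526 windows at or above 300 but below 1000 reached 2879 kb on 129 and 3257 kb on Cas, and the 197 windows below 300 reached 5526 kb on 129 and 5791 kb on Cas. In all windows of the table the same 3 classes had 129 distances of 138, 864 and 3214 kb from the highest to the lowest class. Within each class the windows of these genes thus had the longer distances, though counts were not matched within a class. Spearman's rho between summed count and distance was -0.62 on both alleles over the 866 windows, a description only, because neighbouring windows share baits and genes. Since baits sit at promoters, a window without a bait is counted only as the partner of one elsewhere, and the share of the count and distance differences that follows from bait positions was not tested.

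**Figure D1:**
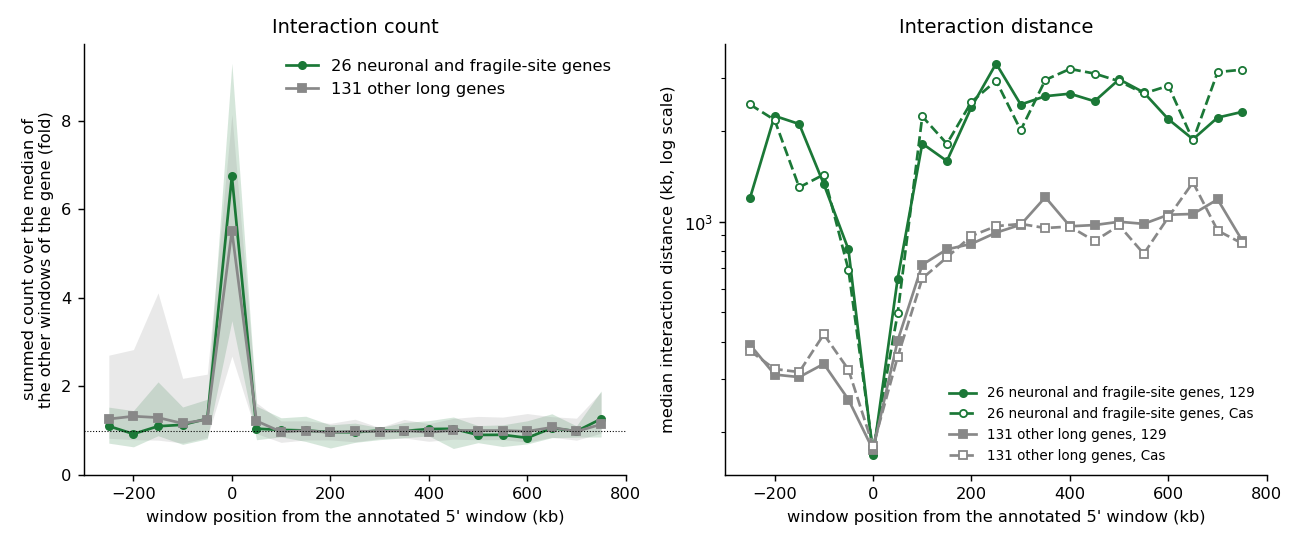
Median summed count of a window over the median of the other windows of its gene (left, fold, with the interquartile range shaded) and median interaction distance (right, kb, log scale, solid lines for 129 and dashed lines for Cas) by window position from the annotated 5′ window, for 26 of the very long neuronal and fragile-site genes and 131 other long genes. The count peak of 6.75-fold is 1 window wide, and distances lengthen on both sides of it, further in the named genes than in the other long genes.

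At the annotated 5′ end counts were high and distances short. The 5′ window of the 26 genes had a median summed count of 2950, and 6.75 times the median of the other windows of the same gene (range 0.412 in Tenm3 to 21.1 in Kcnip4). In 21 of the 26 genes the ratio was 2 or more, in 3 it was below 1, and in 13 the 5′ window was the highest of the gene. The other long genes had a median ratio of 5.51, with 109 of 131 at 2 or more and the 5′ window highest in 67. The peak was narrow: the ratio was 1.27 in the window just upstream and 1.04 in the window just inside the gene. Partners of the 5′ window lay a median of 168 kb away on 129 and 173.75 kb on Cas, against 3197 kb and 3391 kb in the rest of the gene, and it was shorter there on both alleles in 23 of 26 genes. The other long genes started from nearly the same place, 175 kb on 129 and 180.0 kb on Cas at the 5′ window, but reached only 956 kb and 936 kb in the rest. One window into the gene the distance of the 26 genes was 646 kb on 129 and 496 kb on Cas, and at 250 kb it was 3343 kb on 129 and 2933 kb on Cas. Against the mean of the other windows in place of their median, the ratio was lower by over 1.5 times in Ctnna3 (7.15), Cntn4 (4.62), Tenm2 (4.57), Dlg2 (4.28), Lrrc4c (3.95), Fhit (2.72), Magi2 (0.274) and Tenm3 (0.254). These ratios come from single pooled values per allele and were not tested. Baits target promoters, and the part of the 5′ count and distance differences set by the capture was not tested.

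**Figure D2:**
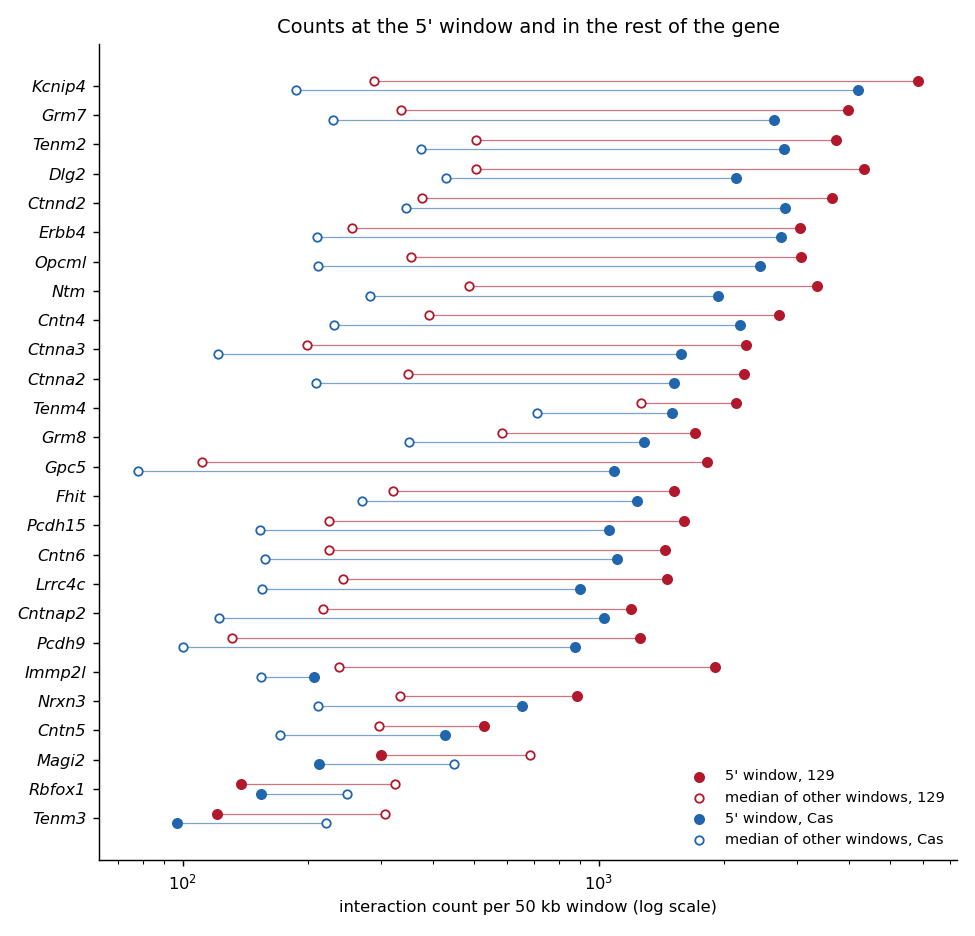
Interaction count per 50 kb window (log scale) on 129 (red) and Cas (blue) at the annotated 5′ window (filled) and as the median of the other windows of the gene (open) in 26 genes, ordered by the summed count of the 5′ window. The 5′ window is the higher one in 23 genes, and Magi2, Rbfox1 and Tenm3 have it below the rest of the gene.

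The contactins, Cntn4, Cntn5 and Cntn6, are immunoglobulin-type adhesion molecules anchored in the axonal membrane. Cntn4 (chr6:105677632-106700141) had 2707 interactions on 129 and 2183 on Cas in its 5′ window, against a median of 390.5 and 231 in the rest of the gene. Cntn6 (chr6:104492662-104863406), just upstream on the same chromosome, had 1442 on 129 and 1106 on Cas, against 225 and 158. The 5′ window of Cntn4 was 7.74 times the median but 4.62 times the mean of its other windows, one of which, at 6460, was higher. That of Cntn6 was 6.47 times the median and the highest of its gene. Their 129 shares were 55.4% and 56.6% there. Cntn5 (chr9:9634223-10904775) had a much lower 5′ window, at 529 on 129 and 426 on Cas against 296 and 171. Its whole-gene 129 share, 65.4%, was the highest of the 36, and its 5′ window, at 55.4%, was the furthest below the rest of its gene, by 10.7 percentage points. The relative Cntnap2 (chr6:45060061-47301393), a contactin-associated protein that organises axonal potassium channels, showed the same order with 1198 on 129 and 1031 on Cas in the 5′ window (53.7%) and 217 and 122 in the rest (62.0%). Of its 46 windows, 40 lay above the 129 share of the whole table. Cntnap5a (chr1:115684737-116587323), of the same family, had its fullest window at the lower end of its span, with 1205 on 129 and 870 on Cas and partners 44 kb and 36 kb away, against 166 and 117 at the higher end, where partners lay 18345 kb and 11141 kb away. Its gene-wide median of 16822 kb on 129, beside 14667 kb on Cas, was the longest of the 36 genes.

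Opcml, Ntm and Lsamp belong to the IgLON family, small membrane-anchored adhesion proteins of neurons. Opcml (chr9:27790716-28925410) and Ntm (chr9:28994749-29963269) are neighbours that run in opposite directions. Opcml had 3066 interactions on 129 and 2441 on Cas at its 5′ window against 353 and 211 in the rest, and Ntm had 3336 and 1935 against 488 and 281. In Opcml 22 of 24 windows, and in Ntm 15 of 20, lay above the 129 share of the whole table. Only 13 of the 45 windows of Lsamp (chr16:39984254-42181679) were analysed here, with a median summed count of 365 and a 129 share of 57.2%. Lrrc4c (chr2:96318169-97631672), which encodes the synaptic netrin-G ligand NGL-1, had 1456 on 129 and 903 on Cas at its 5′ window against 243 and 155. Its 5′ share of 61.7% differed from the rest by 0.753 points.

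The teneurins Tenm2, Tenm3 and Tenm4 are large transmembrane proteins that bind across synapses, and they differed most in where their counts lay. Tenm2 (chr11:36006656-37237053) had 3707 interactions on 129 and 2790 on Cas in its 5′ window against 508 and 374. A window 950 kb from the 5′ end, chr11:36250001-36300000, was higher still, with 3973 on 129 and 3035 on Cas. Tenm4 (chr7:96171244-96911093) was the fullest of all the genes, with a median summed count of 2147 per window, so its 5′ window of 2135 on 129 and 1500 on Cas stood only 1.71-fold above the rest. Tenm3 (chr8:48225665-49522824) had the lowest 5′ window of the 26, with 121 on 129 and 97 on Cas and distances of 4108 kb and 12314 kb. No Tenm3 start is listed in that window, and the listed one, whose sequence is given above, lies 848 kb further in, where 3627 interactions were on 129 and 1007 on Cas. In Tenm3 the peak of interactions was thus at the listed internal start and not at the outer end of the span.

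Of the other adhesion genes, Nrxn3 (chr12:88722701-90334935), a presynaptic neurexin, had 888 on 129 and 654 on Cas at its 5′ window against 332.5 and 211.5. Ptprd (chr4:75941237-78211742), a receptor-type phosphatase of the presynaptic membrane, had one full end, with 1244 on 129 and 1027 on Cas at the higher end of the span against 43 and 28 at the lower end. Csmd3 (chr15:47580638-48792558), a large protein with CUB and sushi domains, also had 1 full end. Its higher end held 2940 on 129 and 1046 on Cas, a 129 share of 73.8%, and its lower end held 107 and 53. That end window of Csmd3 did not pass the allele test described below (beta-binomial adjusted p = 0.322), and Csmd3 as a whole had a share of 64.3%.

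Among the cadherins and catenins, the 5′ windows of Ctnna2, Ctnna3, Pcdh15, Pcdh9 and Ctnnd2 were each the highest of their gene. Ctnna2 (chr6:76881637-77979815), the neuronal alpha-catenin that links cadherins to actin, had 2238 on 129 and 1516 on Cas against 347.5 and 209 in the rest. Ctnna3 (chr10:63430098-65003667), the alpha-catenin of heart and testis, had 2262 and 1580 against 199 and 121.5. Pcdh15 (chr10:73096277-74649831), a protocadherin of hair-cell tip links, had 1603 and 1055 against 225 and 153. Ctnna3 and Pcdh15 lie on chromosome 10, whose own 129 share was 61.1%, so their shares of 60.4% and 61.0% were above that of the whole table and just below that of their chromosome. Pcdh9 (chr14:93013700-93892834), another protocadherin of the brain, had 1255 on 129 and 878 on Cas against 131 and 100. Ctnnd2 (chr15:30172534-31029344), a delta-catenin of dendrites, had 3644 on 129 and 2803 on Cas against 375 and 344, and 17 of its 18 windows lay below the 129 share of the whole table.

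Dlg2 and Magi2 encode scaffold proteins of the postsynaptic density. Dlg2 (chr7:90476188-92449246) had 4329 interactions on 129 and 2133 on Cas in its 5′ window, against 506 and 430 in the rest. The 129 share was 67.0% (95% interval 65.8 to 68.1%) in the 5′ window, against 51.5% (51.1 to 51.9%) in the rest. The gap of 15.4 points was the second largest of the 26 genes, and 37 of the 40 windows of the gene lay below the share of the whole table. No Dlg2 start is listed in this window. The starts of Tmem126a and Tmem126b, 2 mitochondrial membrane protein genes, lie in it. Magi2 (chr5:19219387-20704792) had only 300 on 129 and 213 on Cas in its 5′ window, where 29 of its 30 other windows were higher. Its peak lay 850 kb inside the gene, in chr5:20050001-20100000, with 6205 on 129 and 2454 on Cas. That peak had a 129 share of 71.7% and an adjusted p of 0.156 in the beta-binomial test.

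Among receptors and channel subunits, Kcnip4 (chr5:48389503-49525122), a calcium-binding partner of Kv4 potassium channels, had the highest 5′ window of all, with 5864 interactions on 129 and 4208 on Cas against 288 and 187. No Kcnip4 start is listed in that 5′ window. The listed internal start of Kcnip4 shown above fell in a window with 432 on 129 and 213 on Cas. Grm7 (chr6:110645349-111567230) and Grm8 (chr6:27275121-28135146), presynaptic metabotropic glutamate receptors, differed: Grm7 had 3961 on 129 and 2640 on Cas at its 5′ window against 335 and 230, whereas Grm8 had 1703 and 1286 against 586 and 350. In Grm8, 2 internal windows were higher than the 5′ window. Erbb4 (chr1:68031884-69108576), the neuregulin receptor, had 3039 on 129 and 2742 on Cas against 254.5 and 210.5, with the shortest 5′ distances of the set, 23 kb on 129 and 20 kb on Cas. Only 10 of 43 windows of Lrp1b (chr2:40595290-42653598), an LDL-receptor relative, were analysed here, and they had 1785 interactions on 129 and 1706 on Cas in all.

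The 2 nuclear regulators differed at their ends. Rbfox1 (chr16:5884793-7412480), a neuronal splicing factor, had 138 on 129 and 154 on Cas at its 5′ window, although a start is listed there, against 324 and 248 in the rest. Its 5′ share of 47.3% was the lowest of the 26. Auts2 (chr5:131437333-132543220), a chromatin regulator of developing neurons, had 651 on 129 and 479 on Cas at the higher end of its span and 175 and 98 at the lower end. At 1130, that higher end was also the highest window of Auts2.

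Of the enzymes of fragile-site loci, Fhit (chr14:9550092-11162061), a dinucleoside triphosphate hydrolase, had 1516 interactions on 129 and 1233 on Cas at its 5′ window against 320.5 and 269.5. The fullest window of all 866 lay 700.0 kb inside Fhit, in chr14:10450001-10500000, which holds a second listed Fhit start, with 6262 on 129 and 6232 on Cas, a 129 share of 50.1%. At the 3′ end of Fhit the distances were long, 1762 kb on 129 and 1664 kb on Cas. At its 5′ window they were 226 kb on 129 and 177.5 kb on Cas. Wwox (chr8:114439635-115352712), an oxidoreductase, had 3669 on 129 and 2896 on Cas at the lower end of its span and 4896 and 3441 in chr8:114700001-114750000. Windows in the higher part of Wwox were low, as at its higher end with 352 on 129 and 203 on Cas. Immp2l (chr12:41024061-41955588), a subunit of the mitochondrial inner membrane peptidase, had 1901 on 129 and 207 on Cas at its 5′ window, against 237 and 154 in the rest. Naaladl2 (chr3:23798103-25144149), related to glutamate carboxypeptidase, had a median summed count of 252 in 23 of its 28 windows and a highest one of 1054.

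Glypicans carry heparan sulfate chains on the cell surface. Gpc5 (chr14:115092201-116525192) had the second highest ratio, with 1823 interactions on 129 and 1088 on Cas at its 5′ window against 111 and 78. Gpc6 (chr14:116924920-117979529) had 2807 on 129 and 2439 on Cas at the lower end of its span and 486 and 414 at the higher end. Sgcz (chr8:37517840-38661705), which encodes a sarcoglycan of the muscle membrane complex, had the lowest gene-wide 129 share, 48.9%, against 55.9% for chromosome 8, with 8049 on 129 and 8402 on Cas. Of its 23 windows, 19 lay below the share of the whole table.

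Allele counts were tested window by window. Over all windows 57.57% of interactions were on 129 (50842396 on 129 and 37470557 on Cas), and in these genes 58.5% were (438129 on 129 and 310589 on Cas). Each window with a summed count of 10 or more was compared with the share of the whole table by a two-sided beta-binomial test, with an overdispersion estimated for windows of like count and Benjamini-Hochberg adjustment over all 43762 such windows at 0.05. In these genes 7 of 866 windows (0.808%) passed, against a background of 0.697% of all windows. There were 4 higher on 129, where the background is 0.546%, and 3 higher on Cas, where it is 0.151%. The share of windows passing was thus near the background. An exact binomial test, which covers counting error only, passed 444 windows (51.3%), 262 higher on 129 and 182 higher on Cas, against a background of 51.4%.

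The largest difference was in the 5′ window of Immp2l, chr12:41000001-41050000. Interactions numbered 1901 on 129 and 207 on Cas, so 90.2% were on 129 (95% Clopper-Pearson interval 88.8 to 91.4%, counting error only), with an adjusted p of 6.63e-06 in the beta-binomial test. The Cas count was like that of the windows beside it, 215 upstream and 132 inside the gene, while the 129 count stood well above 425 upstream and 202 inside. Distances differed too, with 136 kb on the 129 allele and 1117 kb on the Cas allele. The usual high count of a 5′ window was therefore seen on the 129 allele and not on Cas. The distance was shorter than in both neighbours on either allele. The neighbours had 745 kb and 815.5 kb on 129, and 3868 kb and 4707.5 kb on Cas. Against the median of the rest of the gene, the distance of the 5′ window was 0.138 times on 129 and 0.816 times on Cas. Only 25.9 kb of that window lies in Immp2l, and the capitals in its promoter above mark 32 CpG.

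In Grm8 the window chr6:27900001-27950000, in the gene body 200.0 kb from the 5′ window, had 2787 on 129 and 395 on Cas (beta-binomial adjusted p = 0.000162). Its neighbours had 575 on 129 and 357 on Cas, and 632 on 129 and 340 on Cas, so here as in Immp2l the Cas count was level with the surroundings. Its partners lay 57 kb away on 129 and 516 kb away on Cas. The microRNA gene Mir592 lies in this window. The 5′ window of Grm8 had a 129 share of 57.0%, close to that of the whole table.

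The teneurins had the other 2 windows higher on 129. In Tenm4 it was the last window of the gene, chr7:96900001-96950000, with 4193 on 129 and 1040 on Cas (beta-binomial adjusted p = 0.00655), of which only 11.1 kb lies in the gene. Partners there lay 99 kb away on 129 and 22 kb away on Cas, and the next window downstream had 4449 on 129 and 3206 on Cas. In Tenm3 it was the window of the listed internal start, chr8:48650001-48700000, with 3627 on 129 and 1007 on Cas (beta-binomial adjusted p = 0.0269). The Cas count of this Tenm3 window was still above those of its neighbours, 240 and 275, so both alleles had a peak and that of 129 was higher.

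Of the 3 windows higher on Cas, 2 were in Dlg2. The window chr7:91650001-91700000 had 1467 on 129 and 3745 on Cas, a 129 share of 28.1% (beta-binomial adjusted p = 0.000194), and partners 207 kb away on 129 and 77 kb away on Cas. Nearby, chr7:91450001-91500000 had 422 on 129 and 690 on Cas (beta-binomial adjusted p = 0.0407), a call that was lost with a single overdispersion for all windows (adjusted p = 0.186). All 5 windows from the first to the second had shares below 50%, the 3 between them at 46.1%, 40.5% and 47.4%. Distances in that stretch were longer on 129, for example 7966 kb on 129 and 1086 kb on Cas in chr7:91550001-91600000. The 5′ window of Dlg2 itself did not pass (beta-binomial adjusted p = 0.961), nor did Dlg2 as a whole (beta-binomial unadjusted p = 0.386). The third was in Lrp1b, chr2:40950001-41000000, with 90 on 129 and 242 on Cas (beta-binomial adjusted p = 0.0202), among sparse windows, with partners 8606.5 kb away on 129 and 11732 kb away on Cas.

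**Figure D3:**
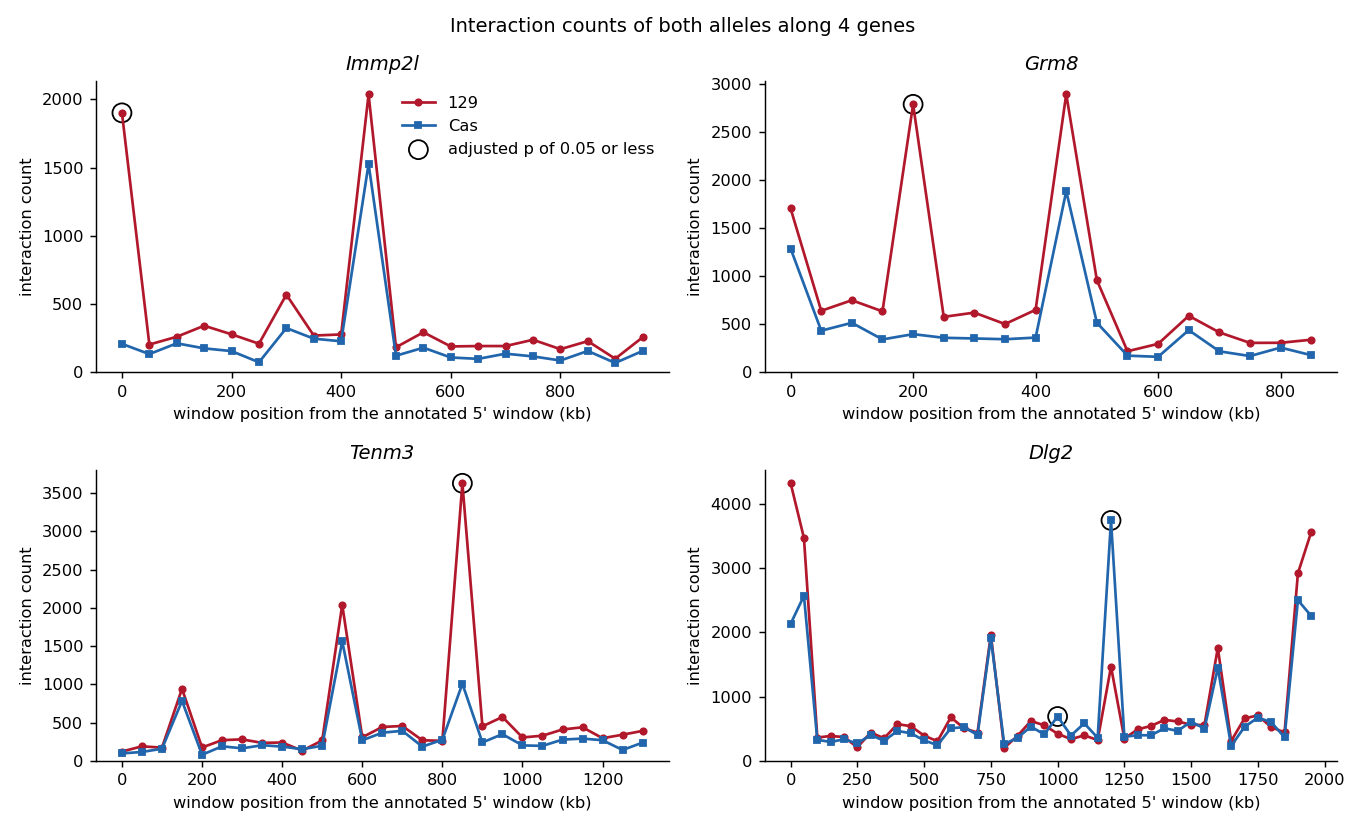
Interaction counts on 129 (red circles) and Cas (blue squares) in each 50 kb window of Immp2l, Grm8, Tenm3 and Dlg2 by position from the annotated 5′ window (kb), with windows of adjusted p 0.05 or less circled. Both alleles follow each other along most of each gene, and the circled peaks have 1901 against 207, 2787 against 395, 3627 against 1007 and 1467 against 3745 interactions on 129 and Cas.

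No gene as a whole passed. With counts summed over the windows of a gene, 0 of 36 genes had unequal allele counts in the beta-binomial test with Benjamini-Hochberg adjustment over 18479 protein-coding genes, and 0 at an unadjusted p under 0.05, against 5.54% of all protein-coding genes, the lowest being 0.0996 for Sgcz. The background of the adjusted test was 1.36% in either direction and 0.996% higher on 129, and none of the other 180 long genes passed. The overdispersion used, 0.0109, was fitted over all protein-coding genes, and over genes of 10 or more windows it was 0.00621. The larger value makes a long gene less likely to pass, so 5.54% and 1.36% are not like backgrounds for these genes. With 0.00621 in its place, 0 of 36 passed the adjusted test as well. The exact binomial test passed 28 of 36, 19 higher on 129 and 9 on Cas, against a background of 67.5%. The shares ran from 48.9% in Sgcz to 65.4% in Cntn5, with a median of 59.1%, against 57.9% in the other long genes and 57.1% over all protein-coding genes. In 23 of the 36 the share was above that of the whole table, against 102 of 180 other long genes, and in 21 it was above that of their own chromosome.

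In 10 of 36 genes (27.8%) at least 80% of the windows were on the same side of the share of the whole table, 6 above and 4 below. Among the 180 other long genes this held for 40 (22.2%), 24 above and 16 below, a similar rate. The extremes were Opcml, with 22 of 24 windows above, and Ctnnd2, with 17 of 18 below. Neighbouring windows share partners and are not independent of each other.

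**Figure D4:**
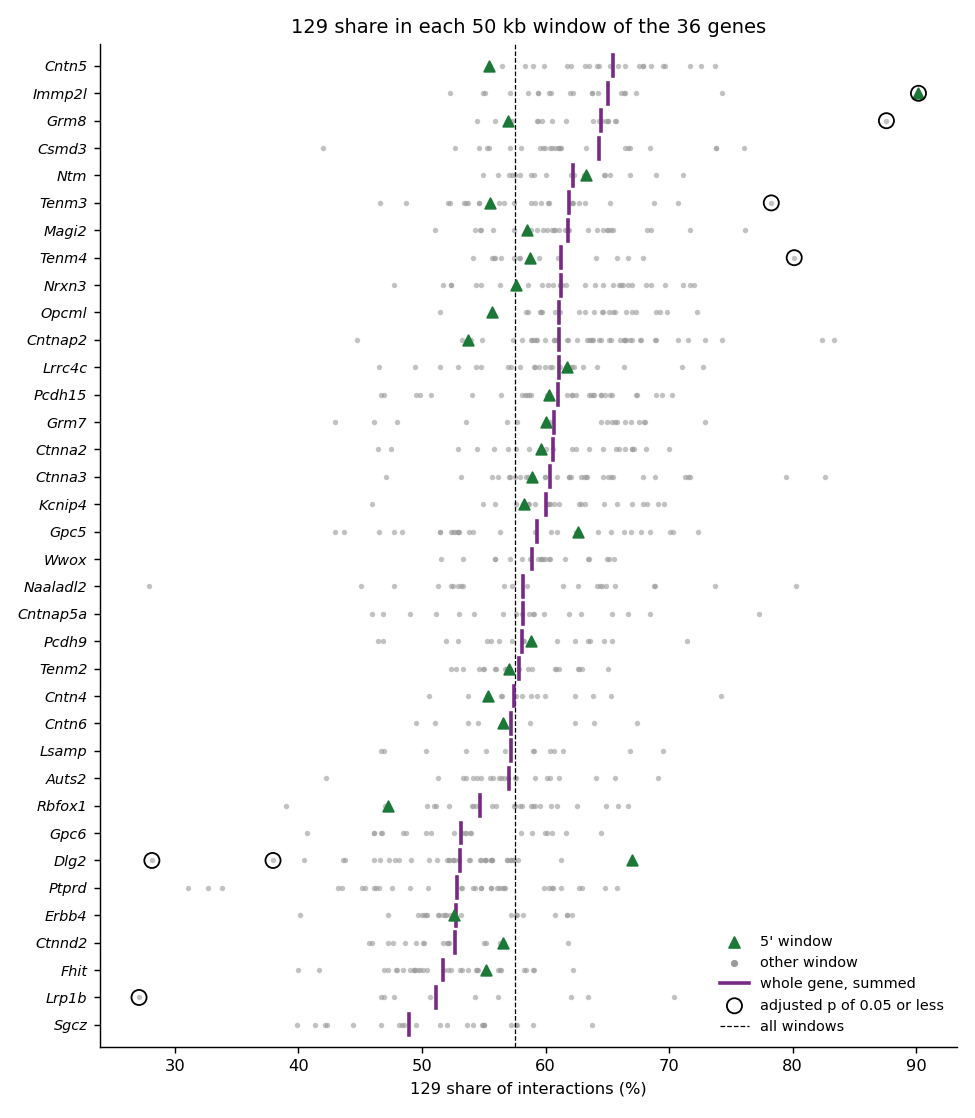
The 129 share of interactions (%) in each 50 kb window (grey points), in the 5′ window (green triangles) and over the whole gene (purple bars) for the 36 genes, ordered by the share of the whole gene, with the share of all windows as a dashed line and windows of adjusted p 0.05 or less circled. Whole genes lie between 48.9% and 65.4%, and 7 single windows are circled.

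In most genes the 129 share of the 5′ window was close to that of the rest of the gene or below it. The share was higher at the 5′ window than in the rest in 8 of 26 genes and lower in 18, with a median difference of -1.19 points, and it was within 5 points in 17. It was more than 5 points above the rest in Immp2l, Dlg2 and Ctnnd2, where Ctnnd2 had 56.5% in the 5′ window against 51.0% in the rest. It was more than 5 points below the rest in Cntn5, Grm8, Cntnap2, Opcml, Rbfox1 and Tenm3, down to -10.7 points in Cntn5. In the other long genes it was higher in 51 of 131, with a median difference of -1.26 points and a range of -16.0 to 14.1 points. The 5′ shares ran from 47.3% in Rbfox1 to 90.2% in Immp2l, and without Immp2l no higher than 67.0% in Dlg2. After these 2, the highest were Ntm with 63.3%, Gpc5 with 62.6%, Lrrc4c with 61.7% and Pcdh15 with 60.3%. At the low end, Rbfox1 was followed by Erbb4 with 52.6%, Cntnap2 with 53.7%, Fhit with 55.1%, Cntn4 with 55.36% and Cntn5 with 55.39%. Of the 26 windows only that of Immp2l passed the allele test.

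Distances differed between the alleles in many windows, in both directions. They were at least 2-fold longer on 129 in 124 of 866 windows (14.3%), against a background of 8.37%, and at least 2-fold longer on Cas in 122 (14.1%), against a background of 8.73%. The other long genes had 11.8% longer on 129 and 9.59% longer on Cas. Part of this goes with low counts, since a 2-fold difference was found in 33.5% of windows below 300 interactions, in 28.5% of those from 300 to below 1000 and in 21.0% of those at or above 1000. Among all windows the same 3 classes had 37.0%, 22.2% and 8.56%. By these classes, the windows of these genes exceeded all windows only at 300 interactions or more. The classes are wide and counts were not matched within them. The distances carry no error by which the difference could be tested.

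Where both alleles had at least 100 interactions, the largest difference was in Tenm3, in chr8:48700001-48750000, next to the window of the listed start, with 67 kb on 129 and 3403 kb on Cas. Grm8 had 57 kb on 129 and 1663 kb on Cas in chr6:27950001-28000000, next to its window higher on 129. In both genes the short distance was thus on 129 and beside a 129 peak, while the 2 counts in these windows were 261 on 129 and 275 on Cas in Tenm3, and 632 and 340 in Grm8. Cntn5, Csmd3, Gpc5 and Tenm4 followed with distances 12.0 to 13.1 times longer on Cas. In the other direction, Lrp1b had 945 kb on 129 and 37 kb on Cas in chr2:42600001-42650000. Cntn4 had 1817 kb on 129 and 73 kb on Cas in the window just inside its 5′ window. Rbfox1, Immp2l, Kcnip4 and Ptprd followed with distances 9.44 to 21.2 times longer on 129, the Immp2l window being the one after Lrrn3, with 749.5 kb on 129 and 60.5 kb on Cas.

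**Figure D5:**
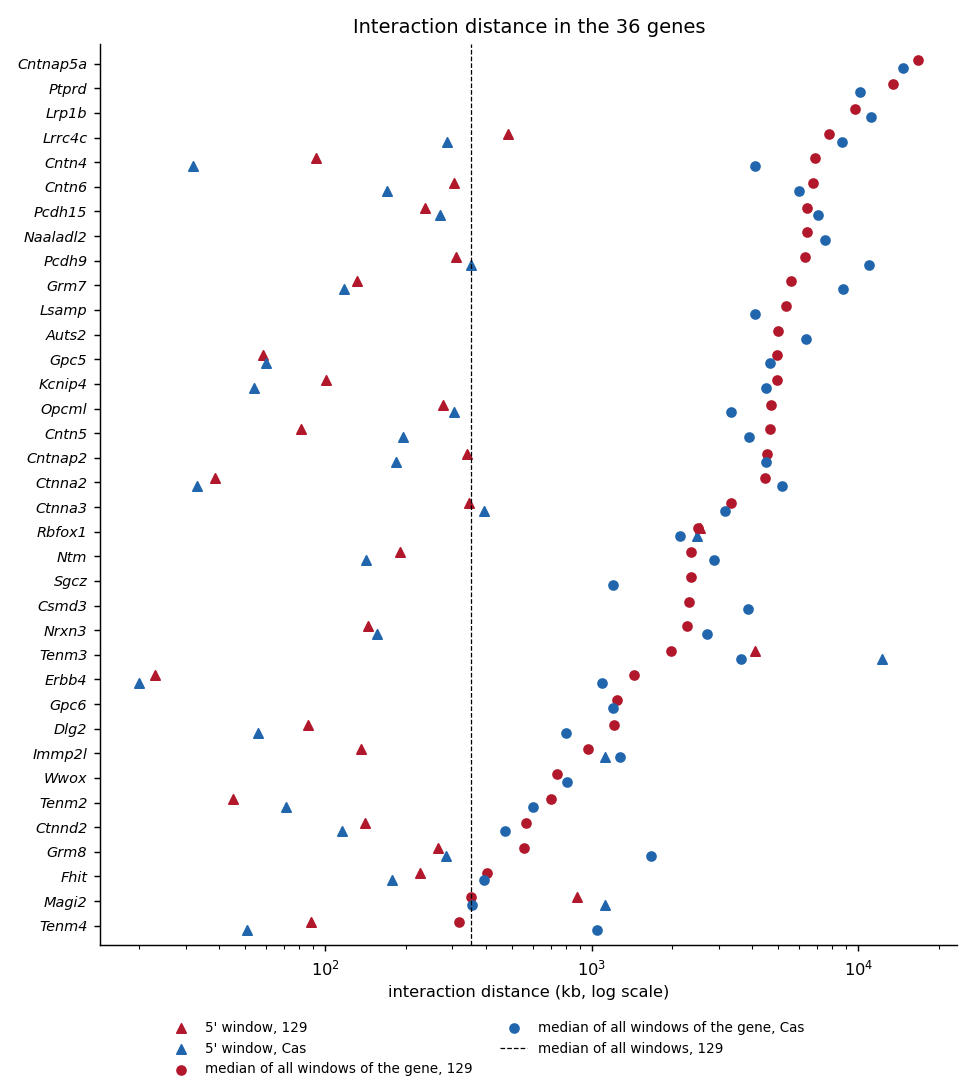
Interaction distance (kb, log scale) on 129 (red) and Cas (blue) at the 5′ window (triangles) and as the median of all windows of the gene (circles) for the 36 genes, ordered by the 129 median. Cntnap5a has the longest medians, at 16822 kb on 129 and 14667 kb on Cas, and the line marks the 352 kb median on 129 of all windows in the table.

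By gene, the shortest median distance on 129 was that of Tenm4, with 319 kb on 129 and 1042 kb on Cas. On Cas the shortest was that of Magi2, with 351 kb on 129 and 356 kb on Cas. Fhit, with 406 kb on 129 and 393 kb on Cas, was likewise near all windows of the table. Grm8 had 557 kb on 129 and 1663 kb on Cas, whereas Sgcz had 2356 kb on 129 and 1197 kb on Cas. The middle of the 36 genes was at 3899 kb on 129 and 3738 kb on Cas.

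Most windows with the start of another gene stood little above the rest of the long gene, and some were peaks. Windows with the listed start of another gene numbered 52, with a median summed count of 640.5, 1.18 times the median window of their long gene, and 19 of them reached 1000. Windows with an internal start of the long gene itself numbered 21, with a median of 825. The 767 windows with no listed start had a median of 458. The leucine-rich repeat transmembrane proteins Lrrtm1 and Lrrtm3, which organise excitatory synapses, lie inside the alpha-catenin genes. The Lrrtm1 window in Ctnna2, chr6:77200001-77250000, had 1723 of its 2939 interactions on 129, 58.6%, and was 5.33 times the median window of Ctnna2, the highest of its body. The start of Lrrtm3 in Ctnna3 had 1735 on 129 and 1158 on Cas, and its 3′ end 1785 and 1394. The window over Lrrn3, inside Immp2l, in which no start is listed, had 2036 on 129 and 1527 on Cas, a 129 share of 57.1% against 90.2% at the 5′ window of its host. Lrrtm3 and Lrrn3 were chosen after their values were seen. At the 3′ end of Cntn4, the window with the start of Il5ra, an interleukin receptor subunit, had 3648 on 129 and 2812 on Cas.

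Among the 767 windows with no listed start, 94 had a summed count of 1000 or more. Those that overlap an annotated gene for a microRNA, small nuclear or small nucleolar RNA were fuller than the rest. Of 20 such windows 13 reached 1000 and their median was 2056.5, against 63 of 659 and a median of 450.0 in windows with no other gene. Windows with a long noncoding RNA gene reached 1000 in 10 of 44 (22.7%, median 580.5). Those with another annotated gene did so in 8 of 44 (18.2%, median 384). The small RNA class was chosen after the values were seen. The small RNA class includes the Magi2 peak, the window of Grm8 with Mir592 and the last window of Tenm4. In Sgcz the window with Mir383 was the highest of the gene, with 1835 on 129 and 2504 on Cas. The sources used here do not say whether these small RNA genes were among the baited promoters.

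Relatives of these genes likewise had no gene that passed as a whole. Of 59 listed relatives in 16 families, such as other contactins, catenins, protocadherins and glypicans, 57 had windows in the table. Only 9 relatives span 500 kb or more. Of the 57 relatives, 0 passed the beta-binomial test with Benjamini-Hochberg adjustment over all protein-coding genes, against a background of 1.36%. With 57 relatives, 0 is near that background. The beta-binomial test gave 1 of them an unadjusted p under 0.05, against 5.54% of all protein-coding genes, and the exact binomial test passed 32 of 57, against 67.5%. Their 129 shares had a median of 57.4% and ran from 40.9% to 65.5%, with 27 of 57 above that of the whole table.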

How the data were processed

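Promoter capture Hi-C was run on 2 samples of F121-6 hybrid ES cells. Per the submitters' processing notes, Bowtie2 and the mm10 assembly were used; the sources used here give neither allele assignment nor filters nor merging. The deposited table holds whole-number interaction counts per allele in 50 kb windows, not normalised, and the authors' distance per allele, in multiples of 500 bp. Since the 2 samples share their column labels, a column was read as the pool of both, and no label states separate cultures for the replicates. Reads of the Cas allele differ more from the reference, and capture follows bait positions, so either can shape the counts; their part was not tested. Window starts were raised by 1 from the table to count from 1.

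Gene spans and promoters came from RefSeq GRCm38.p6. The 5′ window is the one holding the end of the span given by the strand of the listed promoters. Of 968 windows under the spans, 102, in 10 genes, are not analysed here. Ratios are log2((129 + 1)/(Cas + 1)) minus the median of all windows. The beta-binomial overdispersion was 0.00883 to 0.0485 over 10 classes of summed count and 0.0109 for genes. Intervals are exact Clopper-Pearson and cover counting error only, since interactions were not shown to be independent molecules. Differences in distance, and between the 5′ window and the rest, have no test. Tools were scipy 1.17.1, pandas 2.3.3 and numpy 2.4.6 for values, matplotlib 3.10.9 for figures and Python 3.11.15. The window test was run on counts simulated independently for each window from the overdispersion fitted here, which checks the calculation only. The gene test was not run on simulated data.

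The genes, the lists and the tests were chosen with earlier results of these data known. The rule for named items was all 36 genes, up to 8 windows per direction that passed at a summed count of 30 or more, up to 6 windows per direction with the largest ratio of distances at 100 or more per allele, the 6 genes at each end of the 5′ count and of the 5′ share, genes whose start lies in the highest window of a gene body, and the promoters of genes with the highest and lowest 5′ count or a 5′ window that passed. The Lrrtm1 promoter sequence was shown in addition to this rule. The alternatives were a single overdispersion, an exact binomial test, the share of the chromosome, other minimums and thresholds, and other definitions of the gene body.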

Additional observations from a re-analysis of the deposited data

How the results depend on the processing

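The 7 windows that passed became 444 with the exact binomial test, which takes no account of spread between windows, and 4 at an adjusted p of 0.01, where Tenm3, Lrp1b and the weaker window of Dlg2 no longer passed. They became 10 with a single overdispersion, under which the weaker Dlg2 window was lost, 6 where the midpoint of a window had to lie inside the gene, and stayed at 7 with the share of the chromosome or a summed count of 100 or more. The 0 genes became 28 with the exact binomial test and stayed 0 with the other 3 alternatives. The 5′ count was at least 2-fold above the rest in 19 to 21 of 26 genes, and in 14 of the 18 genes with a listed start there. The 129 share was higher at the 5′ window in 8 to 12 of 26, or 6 of 18. Distance was shorter there in 23 or 24 of 26, or 16 of 18. A 2-fold allelic difference in distance was found in 246 of 866 windows, in 196 of 733 with 100 or more interactions on each side, and in 236 of 829 with their midpoint in the gene. The restriction to those 18 genes and that to genes with every window in the table, which left 6 windows passing, were chosen after seeing the data. Of 78 recomputed 5′ ratios, 49 moved by more than counting error and 0 crossed 1. Of 78 recomputed share differences, 14 moved and 7 changed sign. No paired analysis was possible because the columns pool both replicates, and for the same reason no replicate was left out. Low counts limit what single windows of these genes show.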
